A study of Mus musculus with 15 samples.

Results

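In 15 subcutaneous Renca tumors, 103 genes were lower in every Pbrm1 knockout tumor than in any control tumor by a gap of at least 1.5-fold, and these genes are described here. A gene was included when its mean normalized count over the 15 tumors was at least 50 and its highest value among the 10 knockout tumors, multiplied by 1.5, did not exceed its lowest value among the 5 control tumors. The knockout and control values themselves therefore chose the genes, so their knockout against control differences are given as a description without a test. Pbrm1 and 4 further genes (Cd79a, Col4a3, Col4a4 and Hephl1) were left out by the rule. The 103 genes stand among 18279 measured, 13298 of which reached a mean of 50. Of the latter 107 (0.805%) met the gap in this direction with the left-out genes counted, so not every left-out gene met it. The same gap in the opposite direction was met by 21 genes, with the left-out genes not counted. By GENCODE annotation 99 of the 103 were protein coding, 2 were antisense RNAs and 2 were long intergenic noncoding RNAs.

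Renca is a kidney cancer line that arose spontaneously in the BALB/c strain, and the study asked how loss of Pbrm1 in the cancer cell changes the tumor. Bulk RNA sequencing was performed on 5 control tumors (tumors 1 to 5), 5 tumors of Pbrm1 knockout (KO) clone 4 (tumors 6 to 10) and 5 tumors of Pbrm1 KO clone 18 (tumors 11 to 15). All were grown under the skin of the back of female BALB/c mice, 4 to 6 weeks old when bought, from cells mixed with Matrigel. The knockout cells came from transient transfection with CRISPR/Cas9 and repair plasmids carrying puromycin resistance and a red fluorescent protein, and each knockout line is a single sorted clone. The sample labels call the control tumors tumors of parental Renca cells, whereas the series text calls them control knockout tumors. Some mice of the study received a PD-1 antibody, and the labels do not say whether any of these 15 did. Because control tumors come from 1 line and each knockout group from 1 clone, the knockout and other differences between these lines cannot be told apart. P-values of the clone comparison measure the spread between tumors of a line. Those of the knockout comparison treat the tumors of both clones as 1 group, so their spread also includes the difference between the clones.

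PBRM1 is the bromodomain protein that defines the PBAF form of the SWI/SNF complex, which moves nucleosomes and so sets which genes are accessible for transcription, and it is among the genes most often lost in clear cell kidney cancer. In these tumors Pbrm1 itself had 7452 to 9871 normalized counts in the control group and 2484 to 3138 in the knockout group, 31.0% of the control mean. Gene-assigned reads per tumor ranged from 32924414 to 49099168 (median 40860659). For the labelled tissue, 13 measured markers of renal epithelium and Renca cells were summed. The sum ranged from 185823 to 222392 normalized counts in the control tumors, 163687 to 222708 in clone 4 and 179440 to 210073 in clone 18. The keratins Krt8 and Krt18, with control means of 59687 and 31805, made up a large part of it. The sum therefore says little about the other markers and is no proof of renal identity. Whole tumors hold cancer, stromal and immune cells together, so fewer cells of a type and less RNA per cell cannot be told apart in any value below.

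The 103 genes covered a wide range of differences. On the log2(normalized count + 1) scale the knockout minus control difference ranged from -7.51 to -0.91 with a median of -2.22, against a median of -0.02 over all 18250 genes tested. As ratios of group means, 58 genes were at least 4-fold lower, 30 at least 8-fold and 13 at least 16-fold, and 3 were less than 2-fold lower. The gap itself, the lowest control value over the highest knockout value, ran from 1.51 to 46.0 with a median of 2.06, and it was at least 5 in 11 genes. Most of these genes were expressed at a modest level, with a median mean of 310 normalized counts against 1355 for all genes at a mean of 50 or more. In 14 genes at least 1 knockout tumor had 3 reads or fewer and in 8 at least 1 had none. A tumor with 0 reads still allows up to 3 reads, or 2.64 to 3.93 normalized counts depending on the tumor, and this limit covers counting error only. In 97 genes the difference from control was below -1 on the log2 scale in both clones, which the rule favors, since it set the same ceiling for every knockout tumor.

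**Figure D1:**
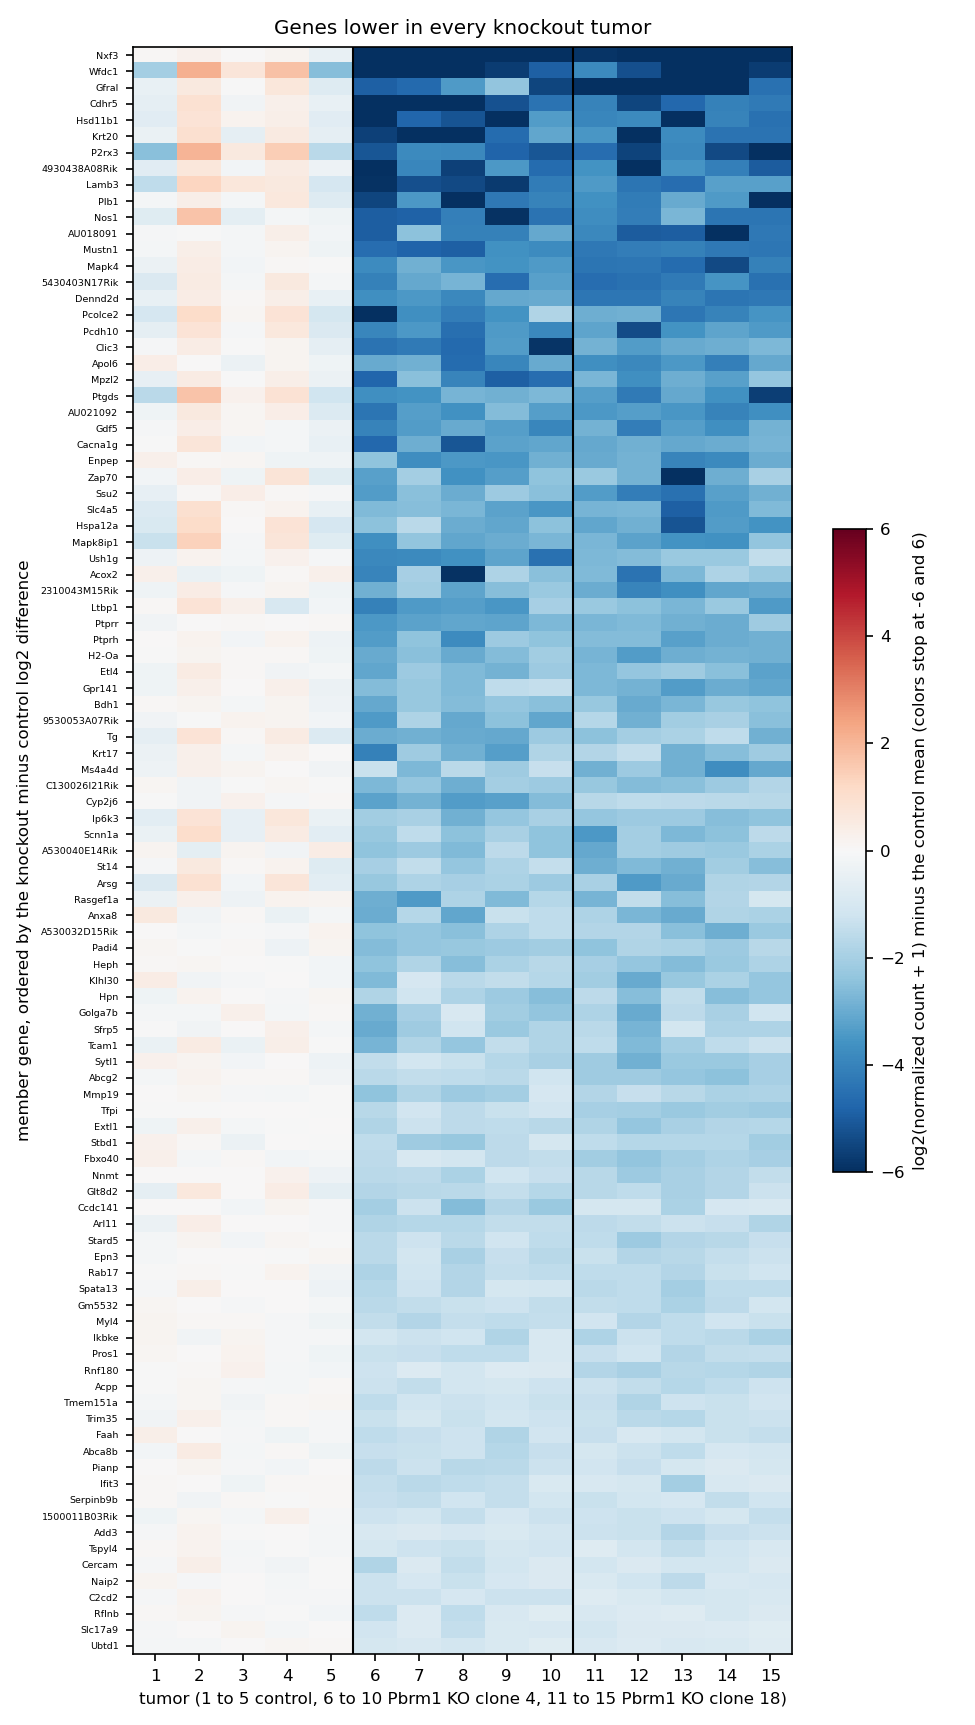
Heat map of 99 of the 103 genes (rows, ordered by their difference) in the 15 tumors (columns), colored by log2(normalized count + 1) minus the mean of the 5 control tumors, with colors ending at -6 and 6. Columns 6 to 15 are blue throughout, as the rule requires, while columns 2 and 4 of the control group are red for many genes near the top, among them Wfdc1 and P2rx3.

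**Figure D2:**
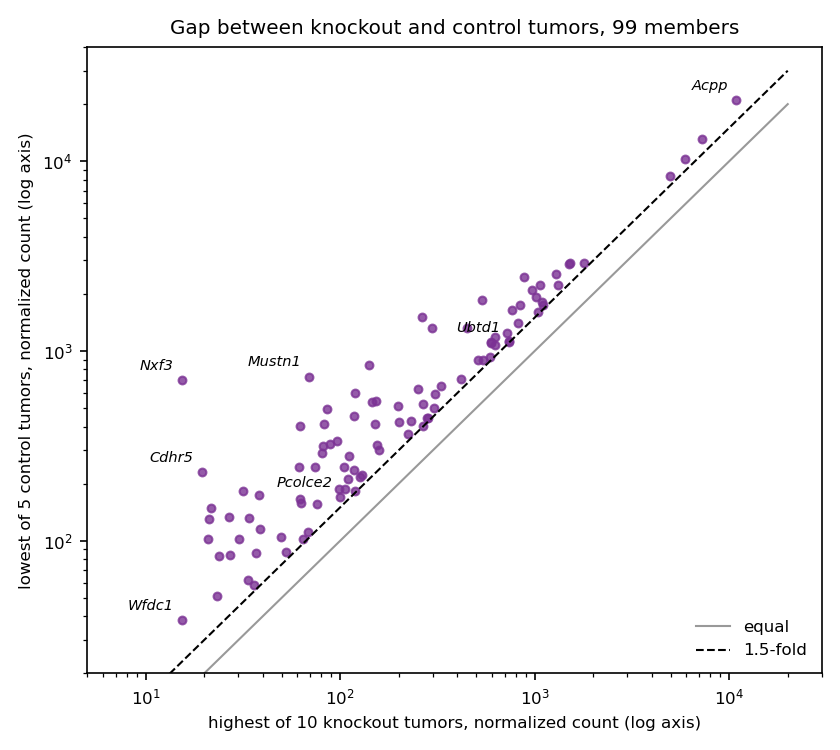
Lowest control value against highest knockout value for 99 of the 103 genes, in normalized counts on log axes, with lines for equality and for a 1.5-fold gap. Nxf3, Cdhr5 and Mustn1 lie farthest above the dashed line and Ubtd1 lies on it.

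Genes at the edge of the rule show how it drew the line. The members closest to the gap were Ubtd1 (1.51), Rflnb (1.51), Slc17a9 (1.52) and Hspa12a (1.53). Just outside were Ssbp2 (1.49), Galm (1.48), Slc2a6 (1.48), Chpt1 (1.47) and Asap3 (1.47). At the floor on the mean, Scnn1a (50.1), Tg (51) and Rasgef1a (55.0) were inside, and C4bp (48.9), Gm3716 (48.7) and Gpbar1 (47.7) were outside. Neighbors across these lines differ little from each other.

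Stretches upstream of the start site are shown for 4 of the genes, as examples of the promoters whose base composition is described next. Each stretch is the 150 bases before a RefSeq start on GRCm38.p6, read 5′ to 3′ on the gene's strand. The genes were those with the largest gap whose stretch overlaps no annotated exon. Capitals mark matches to the searched motifs. The cells are of BALB/c origin, whose sequence may differ from this C57BL/6J reference.

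Cdhr5: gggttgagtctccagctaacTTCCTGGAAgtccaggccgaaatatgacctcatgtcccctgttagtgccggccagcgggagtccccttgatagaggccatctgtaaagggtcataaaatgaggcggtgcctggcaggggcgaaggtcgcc
Krt20: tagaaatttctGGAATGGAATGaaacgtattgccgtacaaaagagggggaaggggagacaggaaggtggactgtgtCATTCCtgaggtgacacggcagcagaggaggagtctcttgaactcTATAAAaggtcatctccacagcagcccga
Plb1: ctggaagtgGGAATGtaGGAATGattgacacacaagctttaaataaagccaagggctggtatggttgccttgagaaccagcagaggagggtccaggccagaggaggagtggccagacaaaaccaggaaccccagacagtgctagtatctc
Enpep: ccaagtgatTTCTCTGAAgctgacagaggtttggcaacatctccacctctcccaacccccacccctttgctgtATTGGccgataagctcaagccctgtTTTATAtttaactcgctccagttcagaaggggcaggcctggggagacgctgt

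The Cdhr5 stretch lies at chr7:141276787-141276936 on the minus strand and holds a GAS-type match (TTC, 3 bases, GAA). The Krt20 stretch at chr11:99438154-99438303, also on the minus strand, holds a TATA box (TATAAA) and 3 TEAD matches (GGAATG), 2 of them overlapping. The Plb1 stretch at chr5:32238934-32239083 on the plus strand holds 2 TEAD matches. The Enpep stretch at chr3:129332750-129332899 on the minus strand holds a GAS-type match, and a CCAAT box and a TATA box that both read on the opposite strand. A match of letters is a description and not a binding site.

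CpG-rich promoters were less frequent among the members than among all measured genes. RefSeq promoters of 300 bases (250 before the start and 50 after it) were listed for 75 of the 103 genes, 105 promoters in all. The observed over expected ratio of CpG was at least 0.6 in 28 of the 105 (26.7%), against 61.2% of the 15224 promoters of all measured genes and 67.5% of the 12385 promoters of genes at a mean of 50 or more. Its median was 0.35 in the members and 0.70 over all measured genes. GC content had a median of 55.0% in the members and 59.7% over all. With only the first-listed promoter of each gene, 28.0% of the members' promoters were CpG-rich by this limit against 64.7% of all. CpG-rich promoters are more common in highly expressed genes, so the share was also taken by level. Among genes with a mean of 50 to under 200 it was 26.8% in members and 46.3% in other genes, at 200 to under 1000 it was 22.7% and 61.8%, and at 1000 or more it was 35.0% and 74.5%. The share was thus lower in members at each level. These shares were not tested, since the members were chosen by their expression.

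**Figure D3:**
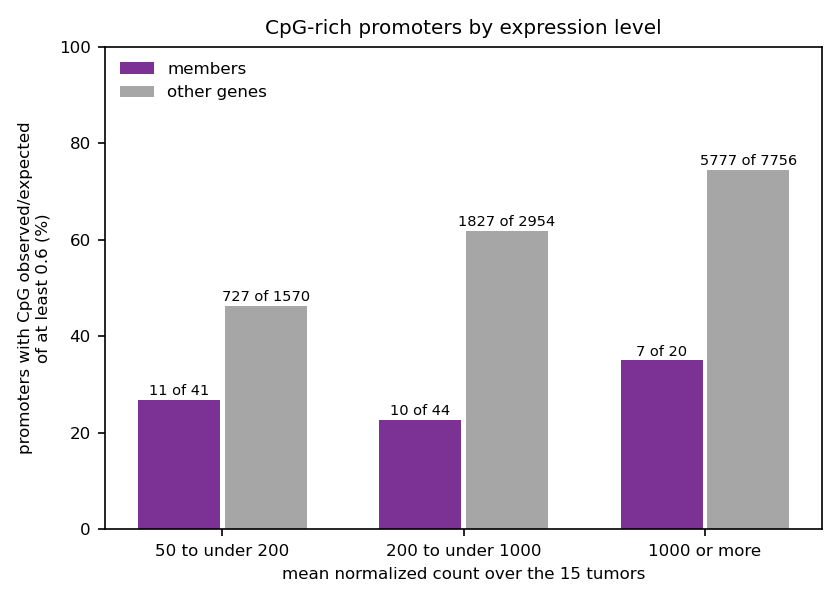
Share of RefSeq promoters with a CpG observed over expected ratio of at least 0.6 (bars, in percent), in 3 classes of mean normalized count, for member genes (purple) and other genes (grey), with the number of promoters above each bar. Member bars stand at 26.8%, 22.7% and 35.0%, and the grey bars at 46.3%, 61.8% and 74.5%.

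Motifs were searched on both strands, 10 in all. The GC box (GGGCGG) was in 39.0% of member promoters and 57.3% of all, the ETS motif (CCGGAA) in 7.62% and 24.0%, the CRE core (TGACGT) in 5.71% and 10.4%, and the CCAAT box (CCAAT) in 25.7% and 37.3%. The TATA box was in 9.52% against 8.02%, the AP-1 motif (TGANTCA) in 9.52% against 5.91%, the E-box (CACGTG) in 10.5% against 9.18%, and the TEAD motif in 13.3% against 12.7%. The GAS-type motif was in 11.4% against 7.03%, and the ISRE-type motif (GAAA, 2 bases, GAAA) in 1.90% against 3.18%, which is 2 of the 105 promoters. The GC box, ETS, CRE core and E-box motifs contain CG, so their shares are not separate from the CpG ratio described above. Many of these counts are small, and all are given as they are, without a test.

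The largest difference was that of Nxf3, an X-linked member of the nuclear RNA export factor family (ENSMUSG00000057000, GRCm38 chromosome X, 136072099 to 136085255). The normalized counts of Nxf3 were 1006, 1148, 978, 1082 and 703 in control tumors 1 to 5, 0, 3.8, 0, 13.7 and 7.8 in clone 4 tumors 6 to 10 and 15.3, 7.4, 3.9, 7 and 4.5 in clone 18 tumors 11 to 15. Its lowest control tumor stood 46.0 times above its highest knockout tumor, the widest gap of all members, and no knockout tumor had more than 15 reads. The ratio of means was 155 and the log2 difference -7.51 (SE 0.57). Among 9 other RNA export genes listed, the paralog Nxf7 fell by 3.40 on the log2 scale (limma adjusted p = 0.00404) from a low control mean of 39.4, and Nxt1, the cofactor of these factors, rose by 0.22 (adjusted p = 0.00819). The main export receptor Nxf1 did not pass the test, with 2311 ± 110 normalized counts in the control group (SD, n = 5), 2470 ± 167 in clone 4 and 2452 ± 146 in clone 18 (adjusted p = 0.25).

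Genes of the basement membrane, matrix and cell adhesion made up 10 of the 84 members that could be placed in a role group, and their log2 differences ran from -6.37 to -1.12. The role groups were formed after the members were known and organize the description only. Wfdc1, a secreted protease-inhibitor-like protein, had the most variable control values. Control tumors 1 to 5 had 54.5, 1003, 383, 788 and 38.1 normalized counts of Wfdc1, clone 4 tumors 6 to 10 had 1, 0, 0, 3.4 and 6.7, and clone 18 tumors 11 to 15 had 15.3, 4.9, 0, 0 and 3.4. Control tumors 1 and 5 were thus close to the knockout range while tumors 2, 3 and 4 were far above it, and the gap was 2.49. Cdhr5, a cadherin-like protein of brush border microvilli, was tighter. For Cdhr5 the normalized counts of tumors 1 to 5 (control) were 229.8, 618, 282, 404 and 246, those of tumors 6 to 10 (clone 4) 1, 2.9, 3, 8 and 14.5 and those of tumors 11 to 15 (clone 18) 19.4, 6.2, 11.8, 19 and 16.8. The groups were separated by a gap of 11.8, with a log2 difference of -5.23 (SE 0.50). Pcdh10, a protocadherin, had 410 to 1314 normalized counts in the control tumors and 17.2 to 82.7 in the knockout tumors, a log2 difference of -3.78 (SE 0.34).

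Lamb3 encodes a chain of the epithelial laminin that anchors cells to the basement membrane. Lamb3 had normalized counts of 102, 733, 485, 444 and 148 in the control tumors, 3.9, 6.7, 6, 4.6 and 15.6 in the clone 4 tumors and 27.6, 13.5, 11.8, 30.1 and 30.2 in the clone 18 tumors, in tumor order. Every clone 18 value but those of tumors 12 and 13 was above the highest clone 4 value. Lamb3 was 25.5-fold lower by group means. Lama3, another laminin chain gene, was low and did not pass the test, with 28.5 to 66.1 normalized counts in the control tumors and 40.8 to 124 in the knockout tumors (limma log2 difference 0.28, SE 0.26, adjusted p = 0.50). Of the 17 other basement membrane genes listed, 1 was lower in the knockout tumors, Col4a5 by 2.45 on the log2 scale (adjusted p = 0.00755), and 0 were higher by limma, edgeR and DESeq2, with 1 at an unadjusted p under 0.05. Across all genes 12.9% were called lower and 9.23% higher. The further laminin chains Lama5, Lamb1, Lamb2 and Lamc1 had log2 differences of -0.08, 0.15, -0.01 and -0.10 and adjusted p of 0.71, 0.61, 0.97 and 0.62.

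Further members of the group act on collagen and growth factor storage. Pcolce2, which enhances procollagen processing, had 170 to 779 normalized counts in the control tumors and 1.9 to 100 in the knockout tumors, with clone 4 tumor 10 highest. Ltbp1, which holds latent TGF-beta in the matrix, had 156 to 546 and 17.4 to 75.7. Mmp19, a matrix metalloproteinase, had 1114 to 1331 and 229 to 599, and Mpzl2, an epithelial adhesion protein, had 545 to 1097 and 25.0 to 153. Cercam, with 445 to 652 against 146 to 278, had the smallest difference of the group.

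Keratins and genes of epithelial trafficking formed a group of 9 with log2 differences from -4.97 to -1.01. Krt20 is a keratin of intestinal and urothelial surface cells. The normalized counts of Krt20 were 145, 367, 133, 274 and 130.1 in control tumors 1 to 5, 2.9, 1.9, 1, 6.8 and 21.2 in clone 4 tumors 6 to 10 and 16.3, 0, 13.1, 8 and 7.8 in clone 18 tumors 11 to 15. Clone 4 tumor 10 stood apart within its clone. Krt17, a keratin of basal and injured epithelium, had 318 to 502 in the control tumors and 24.1 to 154 in the knockout tumors. Among keratins that are no members, Krt7 fell by 2.85 (adjusted p = 0.00147) and Krt18 by 0.32 (adjusted p = 0.0197), whereas Krt8, with means of 59687 in control, 51995 in clone 4 and 50903 in clone 18, did not pass (adjusted p = 0.0756). These relatives were picked after the members were known. Epn3, an epithelial endocytic adaptor, had 2879 to 3466 normalized counts in the control tumors and 815 to 1494 in the knockout tumors, and Rab17, a small GTPase of epithelial sorting, had 652 to 867 and 207 to 329. Add3, gamma-adducin of the membrane skeleton, ranged from 8311 to 10554 and from 2711 to 4973. Anxa8, a calcium-dependent membrane-binding protein, ranged from 2922 to 5749 and from 436 to 1511.

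Channels, pumps and transporters contributed 11 members, with log2 differences from -4.82 to -0.96. P2rx3, an ATP-gated cation channel best known from sensory neurons, had a control group that spread widely. Control tumors 1 to 5 had 158, 3758.2, 1362, 2528 and 298 normalized counts of P2rx3, clone 4 tumors 6 to 10 had 25.1, 63.1, 61.7, 31.9 and 24.5, and clone 18 tumors 11 to 15 had 37.8, 18.5, 61.5, 20 and 12.3. Control tumors 1 and 5 were far below tumors 2, 3 and 4, and the gap was 2.5. P2rx3 overlaps Ssrp1 on the other strand, a histone chaperone gene that did not pass the test (control 12440 ± 576, n = 5, knockout 12847 ± 585, n = 10, adjusted p = 0.55). Cacna1g, a T-type calcium channel, had 602 to 1357 in the control tumors and 22.9 to 119 in the knockout tumors. The epithelial sodium channel subunit Scnn1a had the lowest mean of the members, with 62.4 to 201 and 8.2 to 33.4. It is on the list of distal tubule genes, where 2 of 9 other measured genes rose by limma, Aqp2 by 0.62 (adjusted p = 0.00514) and Slc4a1, which red cells also express, by 0.77 (adjusted p = 0.0027), and 0 fell, also at an unadjusted p under 0.05, by edgeR and by DESeq2. The share called higher over all genes was 9.23%, and 12.9% were called lower.

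Abcg2 is the efflux pump for urate and many drugs. For Abcg2 the normalized counts of tumors 1 to 5 (control) were 2714, 3407, 3088, 3056 and 2541, those of tumors 6 to 10 (clone 4) 947, 1071, 1026, 955 and 1279.9 and those of tumors 11 to 15 (clone 18) 675, 662, 584, 537 and 738. The 3 groups did not overlap. Heph, a ferroxidase that loads iron for export, had 2466 to 2990 in the control tumors and 458 to 885 in the knockout tumors. Its homolog ceruloplasmin (Cp) did not pass the test (control 53293 ± 4684, n = 5, log2 difference 0.17, SE 0.09, adjusted p = 0.22). Slc4a5, a bicarbonate transporter, had 83.6 to 287 in the control tumors and 3.9 to 23.9 in the knockout tumors.

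Enzymes of lipid, steroid and other metabolism were the largest group with 14 members. Hsd11b1 regenerates active glucocorticoid from its inactive form inside cells. Hsd11b1 had normalized counts of 407, 1175, 756, 822 and 403 in the control tumors, 0, 22.9, 16.9, 6.8 and 62.4 in the clone 4 tumors and 42.9, 45.5, 6.5, 39.1 and 28 in the clone 18 tumors, in tumor order. The log2 difference was -5.18 (SE 0.73) and the gap 6.46. Hsd11b2, which runs the opposite reaction, did not pass over both clones together (adjusted p = 0.20), with means of 831 ± 52.9 in control, 412 ± 80.8 in clone 4 and 883 ± 134 in clone 18 (SD, n = 5 each). The glucocorticoid receptor gene Nr3c1 had a log2 difference of 0.05 (adjusted p = 0.64). Plb1, a phospholipase of the brush border, had 103 to 273 normalized counts in the control tumors and 0 to 20.9 in the knockout tumors. Ptgds, a prostaglandin D synthase, had 51.1 to 518 and 2.2 to 23.4.

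Several of these enzymes act on fatty acids and related lipids. Acox2, a peroxisomal oxidase of branched-chain fatty acids and bile acid intermediates, had 410 to 680 and 8.0 to 151. Bdh1, of ketone body metabolism, had 454 to 641 and 66.5 to 118. Cyp2j6, a cytochrome P450, had 632 to 854 and 69.6 to 252, and Faah, which degrades fatty acid amides, had 503 to 778 and 170 to 305. No member was on the fixed lists of cholesterol synthesis and of fatty acid synthesis and oxidation, where 8 of 21 and 7 of 21 genes were lower by limma, against 12.9% of all genes. None of either list was higher by limma, edgeR or DESeq2, with 0 and 1 at an unadjusted p under 0.05. Acpp, an acid phosphatase, had the highest mean normalized count of the members. The normalized counts of Acpp were 22274, 24579, 21562, 20917 and 23363 in control tumors 1 to 5, 9149.5, 7968, 10436, 10865 and 9485 in clone 4 tumors 6 to 10 and 9071, 8066, 6830.2, 7776 and 9534 in clone 18 tumors 11 to 15. It was 2.53-fold lower by group means. Nnmt, which methylates nicotinamide, had 1179 to 1721 and 316 to 627, and Padi4, which converts arginine to citrulline in proteins, had 515 to 706 and 105 to 198.

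Among ligands, receptors and secreted inhibitors, Gfral had the largest difference. It is the receptor for the stress hormone Gdf15 and is known from the brainstem. Control tumors 1 to 5 had 104, 217, 140, 229 and 84.6 normalized counts of Gfral, clone 4 tumors 6 to 10 had 3.9, 4.8, 12.9, 27.3 and 2.2, and clone 18 tumors 11 to 15 had 1, 0, 0, 0 and 5.6. In clone 18, 3 of 5 tumors had no read. Its ligand gene Gdf15, which is no member, fell by 1.11 on the log2 scale over both clones (SE 0.23, adjusted p = 0.00193), with means of 4055 ± 356 in control, 1352 ± 241 in clone 4 and 2661 ± 522 in clone 18. Gdf5, a BMP-type ligand, had 182 to 305 in the control tumors and 12.3 to 31.6 in the knockout tumors. Sfrp5, a secreted Wnt antagonist, had 427 to 611 and 59.8 to 230. The receptor phosphatases Ptprr and Ptprh had 315 to 384 against 32.8 to 81.7 and 323 to 472 against 28.8 to 88.7. The orphan receptor Gpr141 had 2085 to 3206 and 257 to 974. On the lists of the pathways in question, 7 of 37 Wnt genes were lower and 3 higher, and 8 of 32 TGF-beta and BMP genes were lower and 1 higher. Over all genes limma called 12.9% lower and 9.23% higher.

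The membrane-anchored serine proteases St14 (matriptase) and Hpn (hepsin) and the aminopeptidase Enpep were all members. St14 had 103 to 268 normalized counts in the control tumors and 22.5 to 64.6 in the knockout tumors, and Hpn had 212 to 291 and 42.1 to 110. For Enpep the normalized counts of tumors 1 to 5 (control) were 1969, 1669.9, 1748, 1314 and 1339.6, those of tumors 6 to 10 (clone 4) 298, 118, 143, 139 and 215 and those of tumors 11 to 15 (clone 18) 194, 225, 102, 111 and 203. Enpep, which cleaves angiotensin and is abundant in kidney tubules, was 9.20-fold lower by group means. Of the protease inhibitors that act on matriptase and hepsin, Spint1 was low in all groups and Spint2 had 4452 to 5953 in the control tumors and 5069 to 7202 in the knockout tumors (adjusted p = 0.0853).

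Kinases, scaffolds and regulators of small GTPases formed a group of 9. Nos1, the neuronal nitric oxide synthase, had 1 control tumor far above the rest. Nos1 had normalized counts of 246, 1327, 275, 383 and 338 in the control tumors, 12.5, 13.4, 22.9, 5.7 and 17.8 in the clone 4 tumors and 30.6, 22.1, 61.5, 19 and 19 in the clone 18 tumors, in tumor order. Mapk4, an atypical MAP kinase, had 496 to 870 in the control tumors and 14.0 to 86.0 in the knockout tumors. Mapk8ip1, a scaffold of JNK signaling, had 104 to 677 and 19.3 to 49.7, and Dennd2d, an exchange factor for Rab proteins, had 840 to 1599 and 55.1 to 142. Both inhibitors of coagulation among the members differed less. Tfpi, which blocks the tissue factor pathway, had 1654 to 1750 and 363 to 768, and Pros1 (protein S) had 2905 to 4090 and 1029 to 1791. The initiator gene F3 did not pass the test (control 109 ± 43.2, log2 difference 0.76, adjusted p = 0.0689).

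Immune and innate sensing genes contributed 11 members, of which Zap70 was the only one on the T cell list. Zap70 is the kinase next to the T cell receptor. The normalized counts of Zap70 were 131, 190.2, 122, 249.9 and 86.7 in control tumors 1 to 5, 14.5, 34.4, 10.9, 13.7 and 26.7 in clone 4 tumors 6 to 10 and 30.6, 19.7, 0, 18 and 36.9 in clone 18 tumors 11 to 15. Its highest control values were in tumors 4 and 2. Across the 15 other T cell genes, 7 were lower by limma with a median log2 difference of -1.46, 0 were higher by limma, at an unadjusted p under 0.05, by edgeR or by DESeq2, and none was at 0 in all tumors. The share called lower over all genes was 12.9%. The defining receptor gene Cd3g had 181, 18.5, 41.7, 56.0 and 62.4 normalized counts in control tumors 1 to 5 and 4.0 to 22.1 in the knockout tumors, so its order among the control tumors differed from that of Zap70. The summed level of these 15 genes ran from 581 to 2206 in control, 634 to 1032 in clone 4 and 596 to 759 in clone 18. Its largest part was Lck, with 368 to 608 in the control tumors and 397 to 565 in the knockout tumors. Lck did not pass limma (adjusted p = 0.78), so the sum says little about the receptor genes. The part of T cell number in the Zap70 values was not tested.

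Other members of the group belong to interferon-linked and inflammasome pathways. Control tumors 1 to 5 had 556, 528, 446, 555 and 561 normalized counts of Ifit3, clone 4 tumors 6 to 10 had 197, 173, 182, 196 and 282, and clone 18 tumors 11 to 15 had 267, 249.8, 127, 274 and 284. Ifit3 is an interferon-induced antiviral protein, and on the list of interferon response genes 8 of the 29 others were lower by limma (12.9% of all genes were) with a median log2 difference of -0.23, and 0 were higher by limma, at an unadjusted p under 0.05, by edgeR or by DESeq2. The lower ones included the chemokines Cxcl9 (by 2.03, adjusted p = 0.00733) and Cxcl10 (by 1.31, adjusted p = 0.00183), while Ifit1 (adjusted p = 0.50), Isg15 (adjusted p = 0.29) and Irf7 (adjusted p = 0.90) did not pass. The near copy Ifit3b fell by 1.04 (adjusted p = 0.012), and reads may be split between such copies. Ikbke, a kinase of innate signaling, had 713 to 917 in the control tumors and 221 to 417 in the knockout tumors. Naip2, a sensor of bacterial proteins, had 2232 to 2775 and 826 to 1323, with Naip5 lower by 0.43 (adjusted p = 0.0454) and Naip6 not past the threshold (adjusted p = 0.0833). Apol6 had 1511 to 2574 and 78.6 to 263. Serpinb9b, a member of the serpin cluster that inhibits granzymes and related proteases, had 10217 to 12581 and 4222 to 5911, while Serpinb9 (adjusted p = 0.33), Serpinb9c (adjusted p = 0.27) and Serpinb9e (adjusted p = 0.17) did not pass. H2-Oa, a class II antigen processing factor known from B cells, had 290 to 385 and 33.2 to 80.2, and its partner H2-Ob did not pass (adjusted p = 0.50). Summed B cell markers ran from 1176 to 3196 in control, 1310 to 1834 in clone 4 and 929 to 1319 in clone 18, and the summed macrophage markers from 136111 to 210716, 118172 to 150119 and 105546 to 141989. The largest parts of the B cell sum by mean were Ighm, which fell by 1.42 (limma adjusted p = 0.0252), and Pax5, which did not pass (adjusted p = 0.31). Of the 12 macrophage markers 6 were lower by limma, and the part of these cells in the values above was not tested.

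Mustn1, Myl4, Fbxo40, Klhl30 and Ccdc141 are known from muscle. Mustn1, a small nuclear protein of muscle and bone regeneration, had narrow groups. For Mustn1 the normalized counts of tumors 1 to 5 (control) were 817, 1111, 794, 972 and 733, those of tumors 6 to 10 (clone 4) 35.7, 30.6, 27.9, 69.4 and 63.5 and those of tumors 11 to 15 (clone 18) 43.9, 48, 52.4, 44.1 and 42.5. The gap was 10.6 and the log2 difference -4.28 (SE 0.20). The list of 12 skeletal muscle markers had a summed level of 219 to 598 normalized counts in control, 127 to 4255 in clone 4 and 236 to 3164 in clone 18 and a median log2 difference of 1.97. None of the 12 passed limma in either direction, while 3 were higher at an unadjusted p under 0.05, 5 by edgeR and 6 by DESeq2, and 0 were lower by any of these. Myl4, an atrial and embryonic myosin light chain, had 188 to 253 in the control tumors and 65.2 to 99.0 in the knockout tumors. Fbxo40, a ubiquitin ligase subunit of muscle, had 1245 to 1723 and 265 to 720. Klhl30 had 894 to 1398 and 128 to 511, and Ccdc141 had 1076 to 1354 and 200 to 626.

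**Figure D4:**
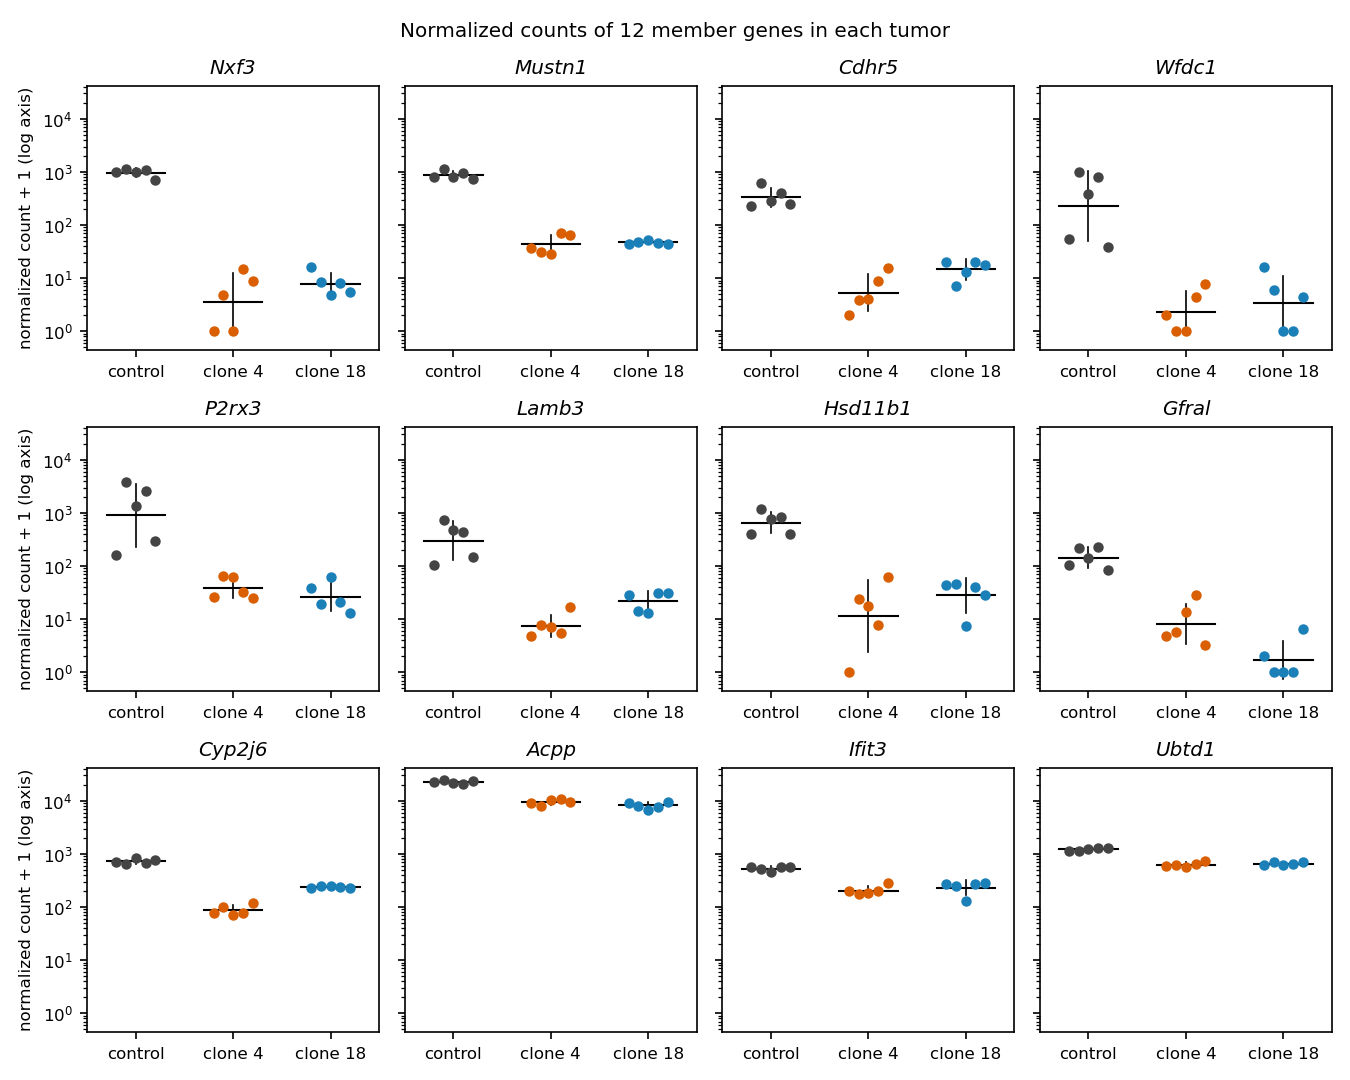
Normalized counts plus 1 (log axis) of 12 member genes in each tumor, control in grey, clone 4 in orange and clone 18 in blue, with the mean and SD of the log2 values as black lines. Nxf3 and Mustn1 show narrow control groups far above both clones, Wfdc1 and P2rx3 show control groups that spread widely, and the Cyp2j6 values of clone 18 lie above those of clone 4.

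Mustn1 lies 138 kb from Pbrm1 on chromosome 14 (Mustn1 at 30879200 to 30881610, Pbrm1 at 31019138 to 31121592). Of the measured genes between them, Itih4, an inter-alpha-trypsin inhibitor chain next to Mustn1, fell by 2.75 on the log2 scale (control 103 ± 33.8, n = 5, knockout 16 ± 9.47, n = 10, limma adjusted p = 4.14e-05). The genes nearer to Pbrm1 did not pass the test, with log2 differences of 0.07 for Nek4, -0.07 for Spcs1, 0.06 for Glt8d1 and -0.0017 for Gnl3 (adjusted p 0.52, 0.55, 0.41 and 0.99). Tmem110, on the far side of Mustn1, did not pass either (adjusted p = 0.22), while Sfmbt1 beyond it fell by 0.28 (adjusted p = 0.0197). On the other side of Pbrm1, Stab1 and Tnnc1 fell by 0.53 and 0.63 (adjusted p = 0.00492 and 0.0103) and Sema3g rose by 0.69 (adjusted p = 0.00244). Smim4, Nt5dc2 and Nisch on that side did not pass (adjusted p = 0.92, 0.21 and 0.35).

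Some members lie next to each other. Lamb3 and Hsd11b1 overlap on opposite strands of chromosome 1 (Lamb3 at 193207699 to 193343878, Hsd11b1 at 193221634 to 193264075), and the neighboring Traf3ip3 did not pass the test (adjusted p = 0.15) while A130010J15Rik rose by 0.24 (adjusted p = 0.0344). Clic3 and Ptgds are 7.93 kb apart on chromosome 2, Cacna1g and Epn3 15.4 kb apart on chromosome 11 and Sfrp5 and Golga7b 45.3 kb apart on chromosome 19. Beyond Epn3, Mycbpap fell by 1.15 (adjusted p = 0.000275) and Rsad1 did not pass (adjusted p = 0.36). Genes within 50 kb of a member were called lower in 33 of 182 cases (18.1%) and higher in 8.24%. Of 13191 other genes at a mean of 50 or more, 13.7% were called lower and 11.3% higher. This larger set may still hold some of the genes near a member. Many of the genes within 50 kb overlap a member, so the shares are a description and were not tested.

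A cluster of related genes on chromosome 1 held 3 members. C130026I21Rik (84992690 to 85270566), A530032D15Rik and A530040E14Rik overlap each other and belong to a region of Sp140-like copies. C130026I21Rik had normalized counts of 1636, 1318, 1466, 1647 and 1475 in the control tumors, 228, 304, 198, 364 and 336 in the clone 4 tumors and 315, 247, 260.5, 332 and 450 in the clone 18 tumors, in tumor order. A530032D15Rik had 167 to 212 in the control tumors and 23.1 to 62.4 in the knockout tumors, and A530040E14Rik 236 to 481 and 41.8 to 117. Reads of near-identical copies can be split or shared by the counting, so these 3 genes may not be 3 separate observations. Nearby Gm7609 fell by 1.01 (adjusted p = 0.00433). The related genes Sp110 and Sp140 fell by 0.86 (adjusted p = 3.25e-05) and 0.51 (adjusted p = 0.000141), and Sp100 did not pass (adjusted p = 0.11).

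By chromosome, 11 members were on chromosome 1, 11 on chromosome 11, 10 on chromosome 2 and 8 each on chromosomes 7 and 19. Chromosome 19 held 7.77% of the members and 3.38% of the genes at a mean of 50 or more, and no member was on chromosome 12, which held 3.32% of those genes. The strand setting of the counting is not given in the sources used here, and 47 of the 103 genes overlap a gene on the other strand. For Dennd2d and Cercam the overlapping gene passed the test as well, with log2 differences of -2.36 for 2010016I18Rik (adjusted p = 3.4e-05) and -1.94 for 2600006K01Rik (adjusted p = 0.000921). So did genes at low counts over Heph (Hsf3, -1.87, adjusted p = 0.00291), Mapk4 (D730045A05Rik, -1.49, adjusted p = 0.0297) and Ush1g (Otop2, -1.63, adjusted p = 0.0361). Other members overlap a gene that passed or 1 that did not. Reads of such pairs cannot be told apart without strand.

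Further members with a role were lower by smaller amounts for the most part. Hspa12a, a distant member of the heat shock protein family, had 183 to 773 normalized counts in the control tumors and 9.2 to 119 in the knockout tumors. Ip6k3, an inositol hexakisphosphate kinase, had 279 to 757 and 57.7 to 111, and Rasgef1a, a Ras exchange factor, 87 to 136 and 9.6 to 52.6. The GTPase-linked Arl11 and Spata13 had log2 differences of -1.58 and -1.50. Among the enzymes, Arsg (a lysosomal sulfatase) had -2.22, Extl1 (a heparan sulfate glycosyltransferase) -1.74, Stbd1 (a glycogen-binding protein) -1.73 and Stard5 (a sterol carrier) -1.57. Abca8b and Slc17a9, the latter a vesicular nucleotide transporter, had -1.31 and -0.96, Rflnb, a filamin regulator, -1.01 and Tspyl4 -1.13.

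The remaining 19 members were placed in no role group. They include the noncoding or little-known genes 4930438A08Rik, AU018091, 5430403N17Rik and AU021092, whose log2 differences were -4.81, -4.30, -3.91 and -3.51. The thyroglobulin gene Tg, the precursor of thyroid hormone, was measured at a low level, with 58.2 to 186 normalized counts in the control tumors and 11.4 to 36.1 in the knockout tumors. It overlaps Sla, a signaling adaptor gene of immune cells that fell by 0.62 (adjusted p = 0.00196). Ush1g, a scaffold protein of inner ear hair cells, had 244 to 362 and 12.3 to 105. The antisense RNA 2310043M15Rik was the most abundant of the 4 noncoding members, with 1862 to 3094 and 142 to 533. Ssu2, Etl4 and Tcam1 had log2 differences of -3.17, -2.58 and -1.93. Glt8d2, Gm5532, Tmem151a, 1500011B03Rik, C2cd2 and Ubtd1 closed the range, from -1.64 to -0.91.

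Gene lists of known pathways and cell types were also compared. Of the 42 lists, whose genes were chosen with earlier results known, 5 held members, among them Lamb3, Pcdh10, Scnn1a, Zap70 and Ifit3. Of the 723 listed genes outside the members, 118 were lower and 51 higher by limma, beside 12.9% lower and 9.23% higher over all genes. No member encodes a listed SWI/SNF subunit. Of the 22 measured subunits 5 were lower, among them Smarcd2 by 0.54 on the log2 scale (adjusted p = 1.42e-06) and Phf10, a PBAF subunit like PBRM1, by 0.51 (adjusted p = 5.29e-05), and 1 was higher, Smarcc2 by 0.23 (adjusted p = 0.0333). Of 14 YAP and TEAD target genes 5 were lower by limma.

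Per kilobase of exon, Serpinb9b, Trim35 and Acpp had the highest control levels, at 3546, 3286 and 3075 normalized counts. Trim35, a ubiquitin ligase of the tripartite motif family, had 13158 to 18668 normalized counts in the control tumors and 4664 to 7223 in the knockout tumors. At the other end, 9530053A07Rik, Tg and Plb1 had 11.2, 12.9 and 15.9 per kilobase.

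The control tumors were not alike in these genes. The median coefficient of variation of a member was 17.3% in control, 29.3% in clone 4 and 23.0% in clone 18. The rule favors a lower value in control, since it asks for a high lowest control value and low knockout counts. The order of the 3 groups is therefore no finding about the members. In 48 members the highest control value was less than 1.5 times the lowest, and in 14 it was more than 3 times. Control tumor 2 was the highest control tumor for 61 of the 103 genes, and tumors 5 and 1 were the lowest for 41 and 31. In clone 4, tumors 6 and 8 were lowest for 39 and 36 genes, and in clone 18 tumors 13 and 12 for 34 and 29. Relative to the control mean the median member was lower by 1.94 to 2.53 on the log2 scale in every knockout tumor.

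The comparison of clone 18 with clone 4 was the only test that the rule did not fix, although the rule set a common ceiling on both clones. Of the 103 genes, 18 passed limma at an adjusted p under 0.05 (17.5%), against 4.62% of all genes and 5.72% of genes at a mean of 50 or more. Of the 18, 6 were higher in clone 18, a direction called in 2.49% of all genes, and 12 were lower, a direction called in 2.13%. Over all 103 genes, the median clone 18 minus clone 4 difference was 0.0017 on the log2 scale, and 52 were higher and 51 lower in clone 18. The size of the difference without its sign had a median of 0.30, against 0.12 for genes at a mean of 50 or more, and 46 members differed by less than 0.25. The values of the 2 clones did not overlap in 13 members (12.6%), against 6.75% of genes at a mean of 50 or more. The comparison genes were not matched to the members on their level in the knockout tumors. Some members were low there, such as Nxf3 with a knockout mean of 6.34 and Gfral with 5.77. Low counts scatter more on the log2 scale, and their part in these differences between members and other genes was not tested. For the 85 genes that did not pass, the test does not show that the clones were alike.

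Genes higher in clone 18 were led by Ush1g, with a log2 difference of 1.57 (SE 0.26, adjusted p = 0.00142), Clic3, a chloride intracellular channel protein, with 1.54 (SE 0.35, adjusted p = 0.0155), and Cyp2j6, with 1.45 (SE 0.14, adjusted p = 7.79e-06). The normalized counts of Cyp2j6 were 707, 632, 854, 681 and 761 in control tumors 1 to 5, 76.2, 101, 69.6, 75.1 and 119 in clone 4 tumors 6 to 10 and 229, 252, 244, 239 and 224 in clone 18 tumors 11 to 15. The clone 18 values of Cyp2j6 were all above those of clone 4 and all below those of control, so its clone 4 difference from control was the larger, -3.05 against -1.60. Control tumors 1 to 5 had 239, 343, 246, 281 and 174 normalized counts of Clic3, clone 4 tumors 6 to 10 had 10.6, 12.4, 9, 23.9 and 3.3, and clone 18 tumors 11 to 15 had 34.7, 23.4, 30.1, 32.1 and 38.1. Only clone 18 tumor 12 fell below a clone 4 tumor in Clic3, tumor 9. Ccdc141 and Pianp had differences of 0.78 (SE 0.21, adjusted p = 0.0394) and 0.39 (SE 0.10, adjusted p = 0.0391).

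Genes lower in clone 18 were led by Gfral, with a log2 difference of -2.28 (SE 0.61, adjusted p = 0.0396), which rests on few reads and depends on the count of 1 added before the log. Mapk4 differed by -1.14 (SE 0.24, adjusted p = 0.0102), Ms4a4d, a membrane protein of the Ms4a family, by -1.13 (SE 0.27, adjusted p = 0.0244). For Mapk4 the normalized counts of tumors 1 to 5 (control) were 496, 870.2, 572, 669 and 632, those of tumors 6 to 10 (clone 4) 45.3, 86, 55.7, 52.3 and 60.2 and those of tumors 11 to 15 (clone 18) 29.6, 30.8, 24.9, 14 and 36.9. Gpr141 and Dennd2d differed by -0.89 (SE 0.22, adjusted p = 0.0258) and -0.85 (SE 0.20, adjusted p = 0.0215), and Sytl1, an effector of Rab-driven secretion, by -0.79 (SE 0.20, adjusted p = 0.0313). Rnf180, a membrane-bound ubiquitin ligase, Fbxo40 and Abcg2 had differences with small errors, of -0.80 (SE 0.10, adjusted p = 0.000153), -0.74 (SE 0.14, adjusted p = 0.00339) and -0.72 (SE 0.10, adjusted p = 0.000391). Rnf180 had normalized counts of 1028, 1098, 1245, 954 and 929 in the control tumors, 445, 592, 482, 586 and 564 in the clone 4 tumors and 309, 269.5, 332, 315 and 294 in the clone 18 tumors, in tumor order. No Rnf180 value of clone 18 reached the lowest of clone 4. Tfpi and Add3 were lower as well, with differences of -0.72 (SE 0.10, adjusted p = 0.000229) and -0.44 (SE 0.09, adjusted p = 0.00621).

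Of the 14 clone differences followed through the alternatives, those of Abcg2, Cyp2j6, Fbxo40, Rnf180 and Ush1g passed under each of 24 alternatives, while the others lost the threshold in some. Leaving out 1 tumor ended the call of Dennd2d for tumor 9 (adjusted p = 0.0572). It ended that of Gpr141 for tumors 9, 10, 13, 14 and 15, that of Ms4a4d for tumors 6, 8, 10, 14 and 15 and that of Sytl1 for tumors 6, 7, 8, 12, 13 and 14. The calls of Gfral, Ccdc141 and Pianp, all with an adjusted p of 0.039 or more, were each lost without any of 10 tumors, including control tumors 1, 3 and 5. Over the 24 alternatives the adjusted p ran from 0.00224 to 0.0572 for Dennd2d, from 0.000423 to 0.0899 for Gpr141, from 0.000741 to 0.101 for Ms4a4d and from 0.00414 to 0.0941 for Sytl1. It ran from 0.0096 to 0.128 for Gfral, from 0.00473 to 0.137 for Ccdc141 and from 0.00761 to 0.102 for Pianp.

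**Figure D5:**
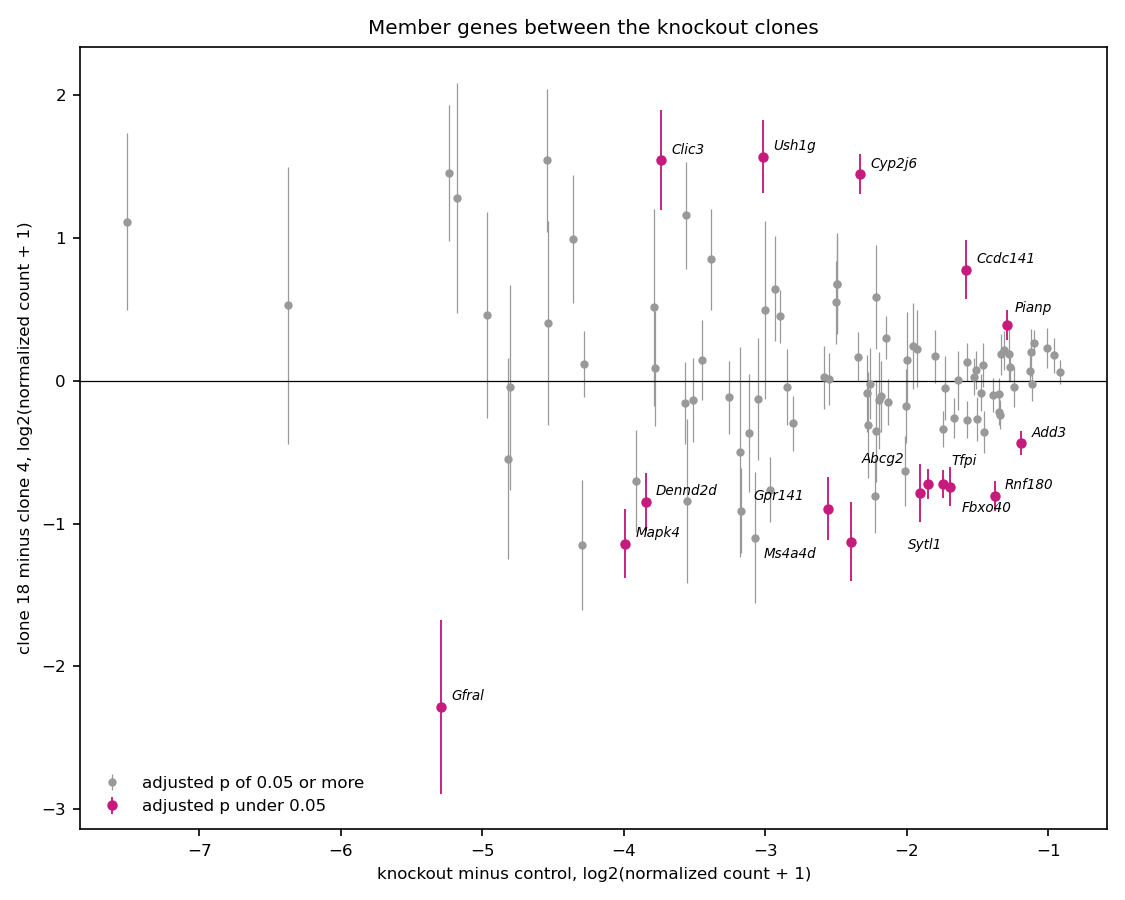
Clone 18 minus clone 4 difference (vertical axis, with its SE) against the knockout minus control difference (horizontal axis) for 99 of the 103 genes, both on the log2(normalized count + 1) scale, with the 16 of these genes at an adjusted p under 0.05 in pink and named. Of the named genes Ush1g, Clic3 and Cyp2j6 stand highest and Gfral lowest, and some grey genes with wide error bars lie as far from 0.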

How the data were processed

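RNA of 15 whole tumors was sequenced, 5 per group. The deposited signal is a normalized count: the authors used TopHat2 (mm10) for alignment, HTSeq for gene counts and DESeq for size factors, and values are rounded to 0.1. Versions, gene annotation and strand setting are not given in the sources used here. In every tumor 100% of values up to 8000 were whole multiples of 1 read within 0.06 normalized counts, so whole reads were recovered for edgeR and DESeq2. Between knockout and control limma called 4040 genes, edgeR 4105 and DESeq2 4615. All 15 columns were used. Values of 4 of the members are not reported here and not drawn, and these genes are counted in totals over all members.

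The members and gene lists were chosen with earlier results of these data known. Role groups and relatives were picked after the members were seen. Named members were the 20 largest falls, the 10 highest means, the 5 genes on each side of the gap, the 10 largest clone differences in each direction, members of the 42 lists and members with a known role. Other genes were named only from those lists, from the edge of the rule, or as a neighbor, paralog or overlapping gene.

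Values were tested as log2(normalized count + 1) with limma 3.58.1 (R 4.3.3) and a mean-variance trend, fitted to 18250 genes that were not 0 in every tumor. The knockout contrast came from a fit with the knockout tumors of both clones as 1 group against control, so a difference between the clones adds to its spread. The contrast between the clones came from a fit with 1 term for each of the 3 groups. P-values were adjusted by Benjamini-Hochberg over all 18250 genes, with a threshold of 0.05 (two-sided). Alternatives were a pseudocount of 0.1 or 5, a minimum mean of 10, upper quartile, quantile and TMM scaling, no trend in limma, recovered reads in edgeR 4.0.16 or in DESeq2 1.42.0, single clones, knockout tumors alone, other limits of the rule, and leaving out each tumor in turn. On simulated counts of 18005 genes, limma found 100% of genes changed by 1 on the log2 scale between knockout and control with 4.76% false calls, and 99% between the clones with 3.87%. The simulated spread was set in advance and not estimated from these tumors, and the changed genes were drawn only from genes without low counts. These rates may therefore not hold for members with few reads or a wide spread. Within groups all 30 pairs of tumors differed beyond counting noise (chi-square divided by its degrees of freedom, 18.6 to 173).

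Symbols were matched to GENCODE M21 for 17966 of 18279 genes, including all 103 members, for positions, exon length and overlaps. Promoter sequences came from RefSeq on GRCm38.p6. Python 3.11.15, numpy 2.4.6, pandas 2.3.3 and matplotlib 3.10.9 were used.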

Additional observations from a re-analysis of the deposited data

Results flagged for a closer look

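In 13 of the 135 groups of 5 tumors formed by 45 named members, 1 tumor stood apart from the other 4 by Dixon's ratio. Chance alone flags about 1 in 20 groups, or 6.75 here. Clone 4 tumor 10 was high in 4 genes. It had 281.8 normalized counts of Ifit3 (173.0 to 196.7 in the other 4 tumors), 21.2 of Krt20 (1.0 to 6.8), 15.6 of Lamb3 (3.9 to 6.7) and 100.3 of Pcolce2 (1.9 to 28.4). Clone 18 tumor 13 stood apart in 5 genes. It was low in Add3 at 2710.9 (3547.3 to 3773.8), in Ccdc141 at 319.4 (571.5 to 625.8) and in Ifit3 at 127 (249.8 to 284.4), and high in Dennd2d at 70.7 (55.1 to 59.3) and in Nos1 at 61.5 (19.0 to 30.6).

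Clone 18 tumor 14 had 20 normalized counts of 5430403N17Rik (9.2 to 11.8 in the others), and clone 18 tumor 15 had 5.6 of Gfral (0 to 1.0). Among the control tumors, tumor 2 had 1327.3 of Nos1 (246.0 to 383.2), and tumor 4 had 193.9 of AU018091 (133.2 to 149.7).

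The difference from control was not the same in both clones for the following 14 members, all at a limma adjusted p under 0.05 and among the 10 largest clone differences in their direction. Tfpi and Add3, which also passed, lie outside those 10. On the log2 scale clone 18 minus clone 4 was 1.57 for Ush1g, 1.54 for Clic3, 1.45 for Cyp2j6, 0.78 for Ccdc141 and 0.39 for Pianp. It was -2.28 for Gfral, -1.14 for Mapk4, -1.13 for Ms4a4d, -0.89 for Gpr141, -0.85 for Dennd2d, -0.80 for Rnf180, -0.79 for Sytl1, -0.74 for Fbxo40 and -0.72 for Abcg2. The outlying values of Ccdc141, Dennd2d and Gfral in clone 18 enter these differences, and their part was not tested.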

How the results depend on the processing

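The number of genes meeting the rule was 103, and it was 179 with a gap of 25%, 53 with a gap of 2-fold and 156 with a minimum mean of 10. Leaving out 1 tumor gave 100 to 118 genes. Between the clones, 6 members were higher and 12 lower in clone 18, against 3 and 7 with only the knockout tumors in the fit, where fewer tumors estimate the spread, and 4 to 7 and 8 to 12 without 1 tumor. The direction of every named difference held under each alternative run. Of the knockout differences, 1119 values moved by less than the spread between tumors and 6 moved by more, those of Abcg2, Cyp2j6 and Rnf180 with clone 4 alone (-1.49, -3.05 and -0.98) and clone 18 alone (-2.21, -1.60 and -1.78), genes that also differed between the clones. Of the clone differences, 273 values stayed past the threshold and 63 did not, and the cause was not tested. Over the 42 lists, 118 of 723 genes outside the members were lower and 51 higher, with 98 to 134 and 48 to 72 under the alternatives. Over all genes DESeq2 called 1359 between the clones, against 844 by limma and 823 by edgeR. Scaling moved the median of all genes by at most 0.051. No paired analysis was possible because the replicate numbers do not link tumors across groups. Low counts limit the members with 3 reads or fewer in a knockout tumor, 14 in all, whose fitted differences depend on the pseudocount.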
